A study of Mus musculus with 6 samples.

Results

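The cleavage and polyadenylation complex was followed through its 10 core subunit genes, *Cpsf1*, *Cpsf2*, *Cpsf3*, *Cpsf4*, *Fip1l1*, *Sympk*, *Wdr33*, *Cstf1*, *Cstf2* and *Cstf3*, which were taken by symbol from a deposited table of 15707 mouse genes. All 10 were listed, and all 10 had a mean FPKM of at least 1 in both groups, FPKM being fragments counted per kilobase of transcript and scaled to the mapped total of the library. Oocytes were *Btg4*-depleted by microinjection of a mix of siRNAs, and the controls received control siRNAs (the labels call them Scr), with 3 libraries in each group, each made from 50 oocytes of a follicle preparation that joined several females. Oocytes of both groups were follicle-enclosed when injected and came from (C57BL x CBA) F1 females 10 to 12 days old, with a follicle culture of 8 to 10 days and then maturation to early metaphase II. The deposited table gives only the mean of the 3 libraries of each group, so no value for a single library and no SD could be had, no test between the groups was made from it, and every difference below is a difference of group means whose error is unknown.

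mRNAs are made with a 3′ end that is first cut and then extended by a poly(A) tail. In the nucleus, the cleavage and polyadenylation specificity factor (CPSF) reads the hexamer AAUAAA near the end of the pre-mRNA, cuts the RNA a short way downstream and brings in the poly(A) polymerase, while the cleavage stimulation factor (CstF) holds a U- or GU-rich stretch beyond the cut. In *Xenopus* oocytes, CPSF and symplekin also act in the cytoplasm, where they work with CPEB to lengthen the tails of stored mRNAs. BTG4, by contrast, works with the CAF1 deadenylase that removes poly(A) tails. Maturing oocytes are nearly silent in transcription and rely on mRNAs stored during growth.

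The transcripts of the complex did not all differ in the same direction. After scaling of the group means to each other, *Cpsf1*, *Cpsf3*, *Cpsf4* and *Cstf3* were 2.66- to 3.46-fold higher in *Btg4*-depleted oocytes, *Wdr33*, *Cpsf2*, *Cstf1* and *Cstf2* were 1.36- to 1.76-fold lower, and *Fip1l1* and *Sympk* lay within 1.26-fold of the control. In all, 4 of the 10 were at least 2-fold higher, beside 19.5% of the 10012 measured genes (those with a mean FPKM of at least 1), and 0 of the 10 were at least 2-fold lower, beside 11.4%. Without the scaling these backgrounds were 16.2% higher and 16.7% lower, and the members' counts were the same. The median log2 ratio of the complex was 0.24, beside -0.02 for all measured genes, and its sign was not stable. It was -0.13 for the 8 members left at a minimum of 5 FPKM, and -0.24 relative to a trend on 3′ UTR length that was added after seeing the data. With 10 genes and no error between libraries, these numbers describe the members and do not set them apart from other genes.

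**Figure D1:**
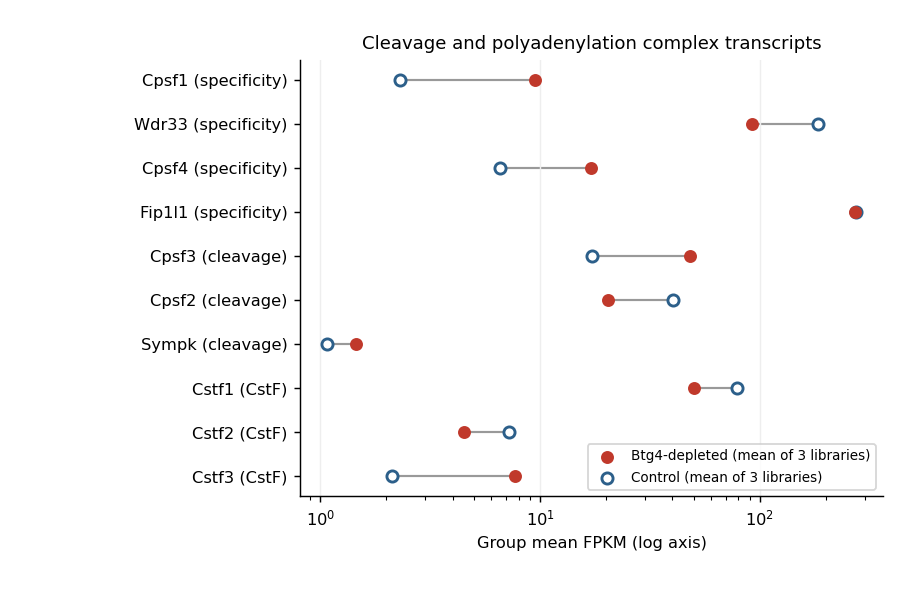
Group mean FPKM (log axis) of the 10 subunit genes, each point the authors' mean of 3 libraries, filled for *Btg4*-depleted and open for control oocytes, with no error bars because single libraries are not in the table. *Cpsf1*, *Cpsf4*, *Cpsf3* and *Cstf3* have the filled point well to the right of the open one, *Wdr33*, *Cpsf2*, *Cstf1* and *Cstf2* have it to the left, and the points of *Fip1l1* (271 and 275 FPKM) nearly coincide.

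Each ratio given here is the *Btg4*-depleted over the control level of FPKM + 1 on the log2 scale, after a trimmed mean of the ratios (TMM) had added 0.16 to each log2 ratio of FPKM. Without that step the median log2 ratio of FPKM was -0.19 over the measured genes, so a gene given as higher or lower is so relative to the middle of all transcripts. The added 1 FPKM understates the difference of low transcripts, and *Cpsf1* and *Cstf3* stood at 2.04 and 1.86 in the unscaled log2 ratio of FPKM alone. The cDNA was primed on poly(A) tails, and a longer tail, a larger number of molecules and a change in RNA per oocyte cannot be told apart in these values. From the authors' mean normalized counts of 320 genes, a library held an estimated 7820000 fragments (6920000 to 8120000 between the 5th and the 95th percentile of those genes), and the fragments behind each member are estimated from this. Those counts are means over all libraries, so the same depth was assumed for both groups and the depth of single libraries is not known. *Btg4*, the target of the siRNAs, had 39.3 FPKM in *Btg4*-depleted and 1766 FPKM in control oocytes. The 9 oocyte marker genes examined, such as *Gdf9* and *Zp3*, were at 335 to 4003 FPKM in *Btg4*-depleted and 412 to 6594 FPKM in control oocytes. Of 8 markers of granulosa and cumulus cells, the somatic cells around the oocyte, 5 were listed, with a summed level of 28.0 FPKM in *Btg4*-depleted and 30.1 FPKM in control oocytes, and *Fshr*, *Amh* and *Foxl2* were not among the listed genes. Those listed differed in both directions. *Inhba* was at 9.24 FPKM in *Btg4*-depleted and 4.28 FPKM in control oocytes and *Inha* was also higher. *Cyp19a1* was at 5.87 FPKM in *Btg4*-depleted and 14.8 FPKM in control oocytes and *Kitl* was also lower. *Has2*, at 0.01 FPKM in *Btg4*-depleted and 0.0433 FPKM in control oocytes, was too low for a direction, 0.01 being the lowest listed value. The part of such cells in the member values was not tested.

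The hexamer that CPSF reads, or a variant of it, stands in most of the subunits' own transcripts, and the ends of 6 of them are shown. *Cpsf1* carries TATAAA, *Cpsf4* carries ATTAAA, and *Cstf3*, *Cpsf2*, *Cstf2* and *Sympk* carry AATAAA. For each, 30 bases near the annotated transcript end are given 5′ to 3′ as DNA, with the hexamer in capitals, from the GENCODE M21 transcript nearest to the deposited length (GRCm38, a later build than the mm9 of the submitters' processing notes). All lie in the last exon, in the 3′ UTR.
*Cpsf1*, chr15:76595820-76595849, minus strand, exon 37: ctacccattttgTATAAAacacaaagaaaa
*Cpsf4*, chr5:145182010-145182039, plus strand, exon 7: tctatgaggttgATTAAAaagcttgttttt
*Cstf3*, chr2:104665393-104665422, plus strand, exon 21: tcctttgaaaggAATAAAaggacctcaaaa
*Cpsf2*, chr12:102006395-102006424, plus strand, exon 15: tatttcgctaataAATAAAagatgctgagc
*Cstf2*, chrX:134086790-134086819, plus strand, exon 14: ctgtcgtggattcAATAAAtattttaaaag
*Sympk*, chr7:19054572-19054601, plus strand, exon 27: tgccttaacacaAATAAAagagggcgtagc

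On the sense strand, AATAAA was present in the last 40 bases of 7 of the 10 member transcripts, beside 62.7% of 9636 measured genes with a matched coding transcript. All 6 members that were not 2-fold higher carried it, *Wdr33*, *Fip1l1* and *Cstf1* on transcripts over 20% off the deposited length, and of the 4 that were higher, only *Cstf3* did. *Cpsf4* had ATTAAA, the commonest variant, and *Cpsf1* had neither but held TATAAA, a weaker variant that was looked for after its end had been seen and that 6.24% of measured genes hold. *Cpsf3*, which encodes the nuclease that makes the cut, had none of the 3 hexamers in that window. Over all measured genes, those with AATAAA had a median log2 ratio of -0.14 and 16.8% of them were at least 2-fold higher. Genes with ATTAAA but no AATAAA had a median of 0.09 with 21.7% at least 2-fold higher, and those with neither had 0.24 with 25.2%. The classes were not matched for transcript or 3′ UTR length, with which the ratio also varied, and a part of the hexamer apart from length was not tested. The hexamers are letters at annotated ends, and which end the oocyte uses was not measured.

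The polyadenylation specificity module, which finds the hexamer and recruits the poly(A) polymerase, is built from CPSF1, WDR33, CPSF4 and FIP1. *Cpsf1* (gene 94230), the large scaffold on which the others assemble, was at 9.45 FPKM in *Btg4*-depleted and 2.31 FPKM in control oocytes, from an estimated 336 and 82 fragments per library. Its log2 ratio of 1.79 was the largest of the 10 and stood at percentile 95.4 of the measured genes. *Cpsf4* (gene 54188), a zinc finger protein that contacts the hexamer directly, had 17.1 FPKM in *Btg4*-depleted and 6.55 FPKM in control oocytes (log2 ratio 1.41), from an estimated 220 and 84 fragments per library.

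The gene of the partner with which CPSF4 reads the hexamer went the other way. *Wdr33* (gene 74320), a WD repeat protein, was at 92.7 FPKM in *Btg4*-depleted and 184 FPKM in control oocytes, which is -0.82 on the log2 scale once scaled, just inside 2-fold, and -0.99 as deposited. It was the second most abundant subunit transcript in both groups. Its matched GENCODE transcript has 2416 bases, 27.8% off the deposited length, with a coding region of 939 bases. Whether the level is that of the full-length subunit was not measured. *Fip1l1* (gene 66899), which binds U-rich RNA and tethers the poly(A) polymerase, was the most abundant, at 271 FPKM in *Btg4*-depleted and 275 FPKM in control oocytes. Its log2 ratio was 0.14 after scaling and -0.02 as deposited, the smallest in size of the 10.

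The cleavage module joins the nuclease CPSF3, its inactive relative CPSF2 and the scaffold symplekin. *Cpsf3* (gene 54451) had 48.1 FPKM in *Btg4*-depleted and 17.2 FPKM in control oocytes (log2 ratio 1.59, percentile 92.5), from an estimated 964 and 344 fragments per library, the deepest of the 4 higher members. *Cpsf2* (gene 51786) had 20.4 FPKM in *Btg4*-depleted and 40.3 FPKM in control oocytes (log2 ratio -0.79, and -0.98 as deposited). *Sympk* (gene 68188), which also serves in cytoplasmic polyadenylation, was the lowest subunit transcript in both groups, at 1.45 FPKM in *Btg4*-depleted and 1.1 FPKM in control oocytes. With an estimated 47 and 35 fragments per library behind it, its log2 ratio of 0.33 has little depth.

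The CPSF3 and CPSF2 proteins pair with each other in the cleavage module, and their transcripts stood in opposite order in the groups. Within *Btg4*-depleted oocytes *Cpsf3* was 2.36 times the level of *Cpsf2*, and within control oocytes it was 0.427 times that level, so that the ratio was 5.54-fold higher after depletion. Such a ratio is taken within one group, and no scaling between groups enters it. Likewise, *Cpsf4* over *Wdr33* was 0.184 in *Btg4*-depleted and 0.0356 in control oocytes, 5.18-fold higher after depletion.

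CstF is a dimer of trimers made of CSTF1, CSTF2 and CSTF3. *Cstf3* (gene 228410), the bridge that joins the trimers, had 7.72 FPKM in *Btg4*-depleted and 2.12 FPKM in control oocytes (log2 ratio 1.61, percentile 92.8), from an estimated 156 and 43 fragments per library. *Cstf1* (gene 67337), its WD repeat subunit, was at 50.2 FPKM in *Btg4*-depleted and 78.8 FPKM in control oocytes (log2 ratio -0.48). *Cstf2* (gene 108062), whose RNA recognition motif binds the downstream element, was at 4.49 FPKM in *Btg4*-depleted and 7.23 FPKM in control oocytes (log2 ratio -0.45). The ratio of *Cstf3* to *Cstf2* was 1.72 in *Btg4*-depleted and 0.294 in control oocytes, 5.86-fold higher after depletion. This pair and those above join a higher with a lower member and were chosen after their values had been seen, so the size of their ratios is only a description. *Cpsf3* over *Sympk*, where both were above the control, was 33.3 in *Btg4*-depleted and 16 in control oocytes, 2.08-fold higher after depletion. Each of the modules thus held at least 1 transcript over 2-fold higher and at least 1 that was lower.

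**Figure D2:**
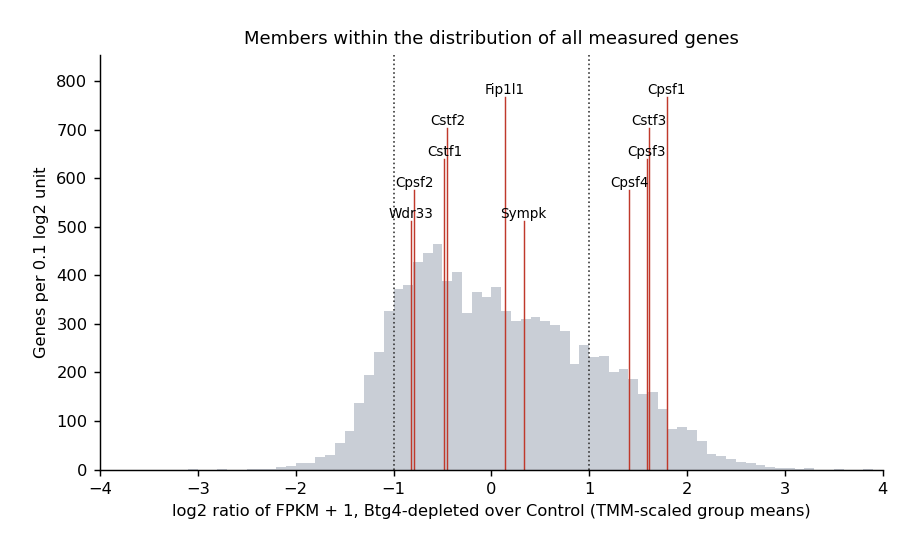
Distribution of the log2 ratio (FPKM + 1 in *Btg4*-depleted over control) of 10012 measured genes (grey, genes per 0.1 log2 unit; the horizontal axis stops at 4 on each side), with the 10 subunit genes as vertical lines whose heights only space the names and dotted lines at 2-fold. *Cpsf4*, *Cpsf3*, *Cstf3* and *Cpsf1* lie together on the right from 1.41 to 1.79, *Wdr33* and *Cpsf2* lie inside the left dotted line at -0.82 and -0.79, and no member lies between 0.33 and 1.41.

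The members' levels were very unequal. In *Btg4*-depleted oocytes they ranged from 1.45 to 271 FPKM, a span of 187-fold, and in control oocytes from 1.1 to 275 FPKM, a span of 256-fold. *Fip1l1* alone held 51.9% of the summed FPKM of the complex in *Btg4*-depleted and 44.8% in control oocytes. The summed level was 523 FPKM in *Btg4*-depleted and 614 FPKM in control oocytes, to which *Wdr33* gave 92.7 FPKM in *Btg4*-depleted and 184 FPKM in control oocytes, while the median subunit stood at 18.7 FPKM in *Btg4*-depleted and 12.2 FPKM in control oocytes. *Fip1l1*, *Wdr33* and *Cstf1* were the top transcripts of the complex in either group and *Sympk* the last. Among the others *Cpsf3* stood above *Cpsf2* in *Btg4*-depleted oocytes and below it in control oocytes, and *Cstf2* was lower than *Cpsf4*, *Cpsf1* and *Cstf3* in *Btg4*-depleted oocytes and above all of these in control oocytes. Across the 10 members, the ratio was larger for lower transcripts (Spearman's rho -0.56 with the geometric mean of both groups' FPKM, points that share the same 6 libraries), while across all measured genes rho was -0.02.

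Long transcripts tended to have lower ratios (Spearman's rho -0.33 over the 10012 measured genes, -0.18 over the 10 members). The part of length in the member ratios was not tested. Set against a loess trend on length, the 4 higher members remained above it by 2.04 for *Cpsf1*, 1.53 for *Cstf3*, 1.51 for *Cpsf3* and 1.06 for *Cpsf4*, all on the log2 scale. *Cpsf1* is long, at 4538 bases, and stood furthest from the trend. *Cpsf2*, at 5315 bases the longest member, was at -0.45 relative to the trend, and *Cstf1* at 1820 bases and *Wdr33* were at -0.78 and -0.75. The matched GENCODE transcript of *Cstf1* has 3451 bases, 89.6% off the deposited length, so its place relative to the trend is less sure.

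**Figure D3:**
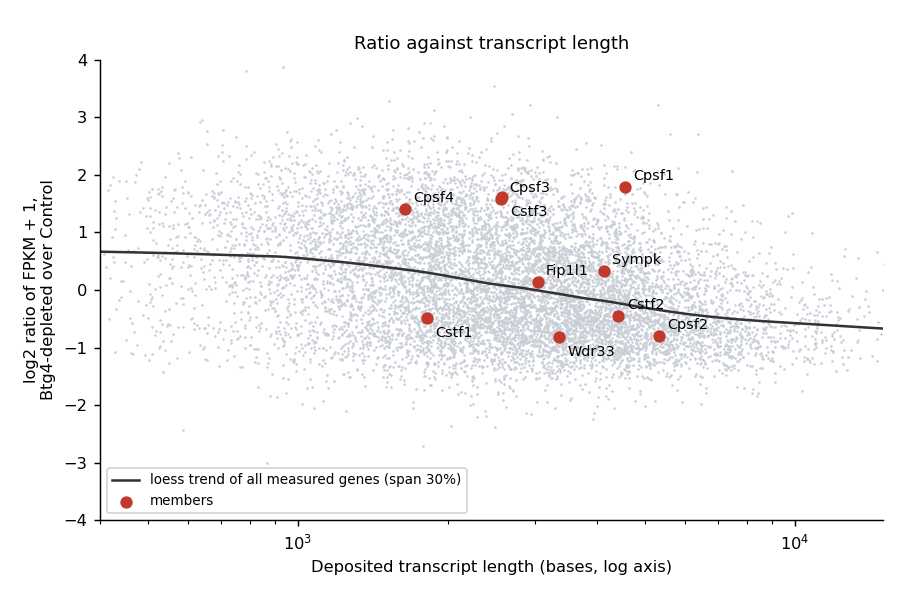
The log2 ratio (FPKM + 1 in *Btg4*-depleted over control) against deposited transcript length (bases, log axis; extreme genes lie outside the axes), with measured genes in grey, the 10 subunit genes in red and the loess trend (span 30%) as a line. *Cpsf1* at 4538 bases lies 2.04 above the falling line, *Cpsf3*, *Cstf3* and *Cpsf4* also lie above it, and *Cstf1*, *Wdr33* and *Cpsf2* lie below.

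The 3′ UTR, where deadenylation factors and CPEB are recruited, differed more between the members than total length did. For 7 members the matched GENCODE transcript was within 10% of the deposited length, and among these the 4 higher ones had 3′ UTRs of 79 bases (*Cpsf1*), 307 bases (*Cpsf3*), 510 bases (*Cstf3*) and 837 bases (*Cpsf4*). The lower ones had 2591 bases (*Cstf2*) and 3203 bases (*Cpsf2*), and *Sympk* had 100 bases. For *Wdr33*, *Fip1l1* and *Cstf1* the matched transcript differed by over 20% from the deposited length, and their UTR lengths are less sure. The deposited lengths of *Cpsf4* (1642.96 bases), *Cstf2* (4412.44 bases) and *Cstf3* (2575.03 bases) are not whole numbers. They may not be those of a single transcript, so a near match does not fix the 3′ UTR in use. Over 9636 measured genes the log2 ratio was likewise lower for longer 3′ UTRs (Spearman's rho -0.28 across genes). Over the same genes rho was -0.22 with coding length and -0.34 with deposited transcript length. A part of the 3′ UTR apart from total length was not tested. The share at least 2-fold higher was 29.6% for UTRs under 500 bases, 18.7% for 500 to 1500 bases and 10.4% for longer ones.

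**Figure D4:**
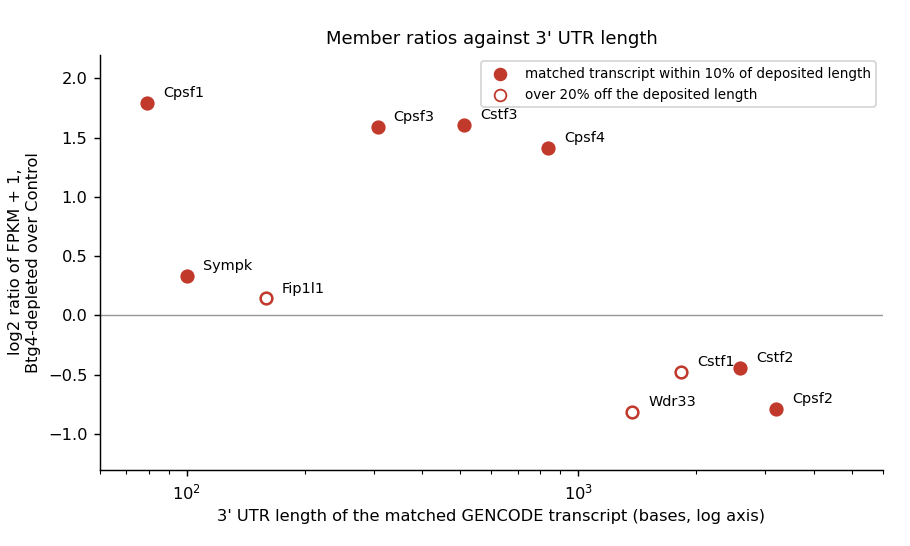
The log2 ratio (FPKM + 1 in *Btg4*-depleted over control) of the 10 subunit genes against the 3′ UTR length of the matched transcript (bases, log axis), filled where that transcript was within 10% of the deposited length and open where it was over 20% off. The filled points of the 4 higher members lie between 79 and 837 bases, those of *Cstf2* and *Cpsf2* at 2591 and 3203 bases, and *Sympk* combines a UTR of 100 bases with a log2 ratio of 0.33.

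A cytoplasmic polyadenylation element, the short U-rich motif that CPEB binds, was searched on the sense strand as TTTTAT or TTTTAAT in the last 150 bases of 3′ UTRs at least that long. It was found in 3 of the 8 members with such a UTR, *Wdr33*, *Cstf1* and *Cstf3*, of which only *Cstf3* has a matched transcript near the deposited length. The *Cstf1* match lies 9 bases from the transcript end, on the 3′ side of its AATAAA, which lies 19 bases from that end. Whether any match acts as such an element was not tested. *Wdr33* and *Cstf1* were lower (log2 ratios -0.82 and -0.48), so members with a match lay on both sides. That of *Cstf3* is shown in capitals, 88 bases from the transcript end, because *Cstf3* is among the 4 higher members.
*Cstf3*, chr2:104665324-104665353, plus strand, exon 21: cttactgtttgtTTTTATttatggcagaat
*Cpsf3*, *Cpsf4*, *Fip1l1*, *Cpsf2* and *Cstf2* had no match in that window, and the UTRs of *Cpsf1* and *Sympk* are shorter than it. Over all measured genes with such a UTR, 26.8% had at least 1 match.

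Reads can be shared with other genes at some members. The matched *Cstf2* transcript overlaps exons of *Nox1* on the opposite strand over 399 bases, and 7.86% of its windows of 50 bases also occur in transcripts of other genes. *Nox1* itself was at 0.41 FPKM in *Btg4*-depleted and 1.13 FPKM in control oocytes, below *Cstf2* in both. *Cpsf2* shares 1.74% of such windows and *Sympk* 1.57%, and the remaining 7 transcripts share none. Without strand information, reads of *Cpsf1* and of its neighbour *Adck5* cannot be told apart over the 11 exon bases they share on opposite strands. *Adck5* was at 6.22 FPKM in *Btg4*-depleted and 1.49 FPKM in control oocytes, higher after depletion like *Cpsf1*, and its part in the *Cpsf1* value was not tested.

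Beside the core complex, 19 of 20 other factors of nuclear 3′ end formation that were looked up were listed, and 18 were measured. Of these, 3 were at least 2-fold higher and 0 at least 2-fold lower, beside the same 19.5% and 11.4% of all measured genes, with a median log2 ratio of -0.26. The 0 does not hold without the scaling and the added 1 FPKM. In the unscaled log2 ratio of FPKM alone, *Slbp* was at -1.03, *Cstf2t* at -1.06 and *Lsm11* at -1.36. The 3 higher ones, *Cpsf4l*, *Lsm10* and *Ints11*, were then at 1.68, 1.32 and 1.19. *Cpsf4l*, a paralogue of *Cpsf4*, had the highest scaled ratio of the 18, at 225 FPKM in *Btg4*-depleted and 70.4 FPKM in control oocytes (log2 ratio 1.83). In both groups it was far above *Cpsf4* itself. In the matched transcripts the coding sequences have 636 bases in *Cpsf4* and 843 bases in *Cpsf4l*, and they are 67.1% identical over 608 aligned bases. The matched *Cpsf4* transcript shares no window of 50 bases with another gene.

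*Cstf2t*, an intronless copy of *Cstf2* known from mouse germ cells, had 5.19 FPKM in *Btg4*-depleted and 10.8 FPKM in control oocytes (log2 ratio -0.79), so that both forms of the RNA-binding subunit were lower. Their coding sequences are 75.8% identical over 1720 aligned bases. Cleavage factor I, which binds UGUA upstream of the cut, had *Nudt21* at 22.3 FPKM in *Btg4*-depleted and 15.3 FPKM in control oocytes (log2 ratio 0.67) and *Cpsf6* at 3.14 FPKM in *Btg4*-depleted and 4.76 FPKM in control oocytes (-0.35). *Cpsf7* was under the level of 1 FPKM in both groups. Cleavage factor II had *Clp1* at a log2 ratio of 0.28 and *Pcf11*, which links cleavage to the end of transcription, at -0.46.

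The enzymes that add the tail differed from each other. *Papola*, the main nuclear poly(A) polymerase, was at 49.3 FPKM in *Btg4*-depleted and 62.2 FPKM in control oocytes (log2 ratio -0.17), while *Papolg* was at 19.2 FPKM in *Btg4*-depleted and 10.4 FPKM in control oocytes (log2 ratio 0.98, just under 2-fold). *Pabpn1*, which coats the new tail in the nucleus, had 24.9 FPKM in *Btg4*-depleted and 43.8 FPKM in control oocytes (log2 ratio -0.63), and its embryonic relative *Pabpn1l* had 115 FPKM in *Btg4*-depleted and 167 FPKM in control oocytes (-0.37). *Ssu72*, a phosphatase of the RNA polymerase II tail that binds symplekin, was at a log2 ratio of -0.62, and *Rbbp6*, which activates the cleavage, at 0.04.

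Among the factors that work with CPSF and symplekin on stored mRNAs, *Cpeb1* was at 96.2 FPKM in *Btg4*-depleted and 116 FPKM in control oocytes (log2 ratio -0.11), *Tent2* (listed as *Papd4*), the cytoplasmic poly(A) polymerase, at a log2 ratio of -0.24 and *Parn*, a deadenylase, at 0.46. *Pabpc1l*, the embryonic poly(A)-binding protein, was higher, at 75.2 FPKM in *Btg4*-depleted and 38.5 FPKM in control oocytes (log2 ratio 1.11). As a complex of opposite function, CCR4-NOT deadenylase had 2 of 11 subunits at least 2-fold higher and 3 of 11 at least 2-fold lower, with log2 ratios between -1.43 and 1.78, beside 19.5% higher and 11.4% lower among all measured genes. The core RNA exosome, which degrades RNA from its 3′ end, had 2 of 11 higher and 1 of 11 lower (-1.64 to 1.54), beside the same 19.5% and 11.4%. Both ends of that range have little depth. *Exosc6* (1.54) had an estimated 28 fragments per library in *Btg4*-depleted and 4 in control oocytes, and *Exosc2* (-1.64) had 31 and 138. No difference between the complexes was tested.

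**Figure D5:**
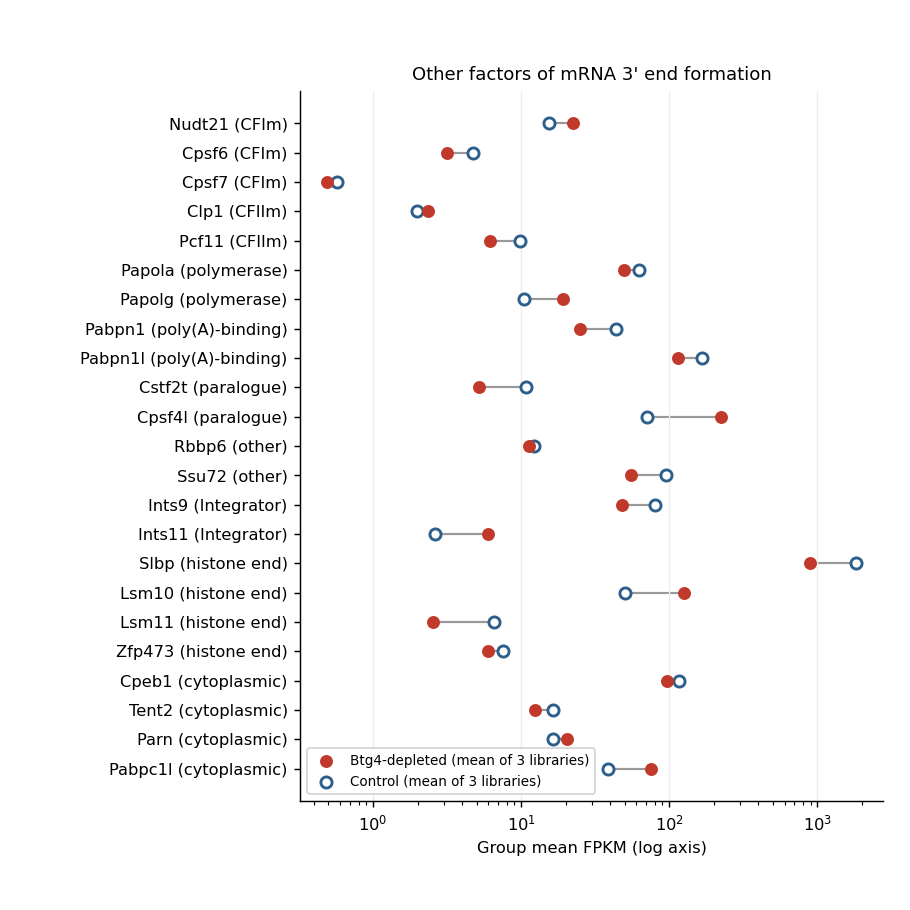
Group mean FPKM (log axis) of the other listed factors of nuclear and cytoplasmic 3′ end formation, each point the authors' mean of 3 libraries, filled for *Btg4*-depleted and open for control oocytes, with no error bars because single libraries are not in the table. *Cpsf4l* (225 and 70.4 FPKM) and *Pabpc1l* (75.2 and 38.5 FPKM) have the filled point to the right, while *Pabpn1* (24.9 and 43.8 FPKM) and *Cstf2t* (5.19 and 10.8 FPKM) have it to the left.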

How the data were processed

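Total RNA of 50 oocytes per library was turned into poly(A)-primed cDNA (SMARTer) and read as paired ends. BWA and the mm9 build appear in the submitters' processing notes. The counting program, its annotation and the versions were not given in the sources used here. The authors deposited FPKM as 1 mean per group. The authors' called lists also hold a DESeq2 mean normalized count over all libraries (a signal column in the deposited files), which was used only to estimate depth. The authors' own fold changes, probabilities and p-values in those files were not used.

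The planned limma test needed FPKM of single libraries and was not run. Genes averaging 1 FPKM or more over the groups were kept and scaled by TMM (30% of ratios and 5% of levels trimmed on each side), and log2 ratios of FPKM + 1 were taken. A gene was called past 2-fold, with no test. Alternatives left out the scaling, used median-of-ratios or quantile normalization, set the pseudocount to 0.1 or 0.5, dropped the filter, raised its minimum to 5 FPKM, or subtracted a loess trend on log2 length (span 30% or 60%). Named genes are the members, *Btg4* and fixed lists of 3′ end factors. The members and lists were chosen with earlier results of these data known. Of the measured genes, 96.2% were matched to a coding GENCODE M21 transcript (GRCm38) by Entrez identifier, RefSeq-linked ones first and the one closest to the deposited length. The computations were tested on simulated data. The tools were statsmodels 0.14.6, scipy 1.17.1, Biopython 1.88, matplotlib 3.10.9, pandas 2.3.3 and numpy 2.4.6 under Python 3.11.15.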

Additional observations from a re-analysis of the deposited data

How the results depend on the processing

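*Cpsf1*, *Cpsf3* and *Cpsf4* stayed at least 2-fold higher under all 8 alternatives and *Cstf3* under the 7 in which it was kept, since a minimum of 5 FPKM removes *Cstf3* and *Sympk* (3 of 8 members were then 2-fold higher). No member was 2-fold lower under any of these. Among these 8, *Fip1l1* changed sign once, to -0.02 without scaling, and the other members kept their direction. The median log2 ratio of the members was -0.13 at a minimum of 5 FPKM, where fewer members entered. After removal of the length trend the median was 0.33. A trend on 3′ UTR length, added after seeing the data and resting on transcripts off the deposited length for 3 members, gave -0.24. Relative to it the 4 higher members stood at 1.12 to 1.43, *Fip1l1* and *Sympk* turned to -0.35 and -0.29, and the 4 lower ones stayed negative. Over all genes, 1953 were 2-fold higher and 1140 lower, and without scaling 1617 and 1677. The depth of *Sympk* and the unknown spread between libraries limit these values. No paired analysis was possible because the deposited table holds no values of single libraries, and for the same reason no replicate could be left out.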

Other observations

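Related machines that cut other RNAs held transcripts on both sides as well. In the Integrator complex, which trims small nuclear RNAs with relatives of CPSF3 and CPSF2, *Ints11* (listed as *Cpsf3l*), the nuclease, was at 5.98 FPKM in *Btg4*-depleted and 2.63 FPKM in control oocytes (2.1-fold higher after scaling), and *Ints9*, its inactive partner, at 48.1 FPKM in *Btg4*-depleted and 80.4 FPKM in control oocytes (log2 ratio -0.57). The nuclease transcript was the higher one and its partner the lower one, as for *Cpsf3* and *Cpsf2*, an arrangement noticed after the values had been seen and not tested. Replication-dependent histone mRNAs end in a stem-loop and not in a tail. *Slbp*, which binds that stem-loop, was at 896 FPKM in *Btg4*-depleted and 1830 FPKM in control oocytes (log2 ratio -0.87), *Lsm10*, of the U7 particle, at 126 FPKM in *Btg4*-depleted and 50.5 FPKM in control oocytes (1.47), and its partner *Lsm11* at 2.55 FPKM in *Btg4*-depleted and 6.56 FPKM in control oocytes (-0.96). *Zfp473* was at a log2 ratio of -0.16.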
